A study of Mus musculus with 4 samples.

Results

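The genes described here encode the cytosolic factors of translation initiation and elongation. They were taken by name, as all genes on the array whose name begins with Eif1 to Eif6, Eef1 or Eef2. Of 65 such names, 7 were set aside (the kinases Eif2ak1 to Eif2ak4, Eif2s1, Eif2a and Eif4ebp1), which left 58 of the 36918 gene names on the array. The names include Eif2c5, which carries an old Argonaute-type symbol, and Eif1ad, Eif4enif1, Eef1e1, Eef2k and Eef2kmt, whose products partner or modify factors or only resemble them.

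The study measured mouse pancreatic cancer cells of the C57BL/6 strain on Agilent 1-colour arrays. Cells called K5 and K6 were each given either DMSO as the control or 100 nM halofuginone for 24 hours, with 1 array per line and condition (4 arrays in all). Halofuginone blocks the charging of proline onto its tRNA. The labels do not say what sets K5 apart from K6, whether either is a single clone, or whether the samples are separate cultures. The p-values therefore measure only the spread between these arrays, pooled in large part over genes, and changes within a line have no replicate.

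Initiation loads the small ribosomal subunit with initiator tRNA, brings it to a capped mRNA and finds the start codon. The GTPase eIF2 carries the tRNA, its exchange factor eIF2B recycles it, eIF3 is a large scaffold on the small subunit, and the eIF4 proteins bind the cap and unwind the mRNA. Elongation then needs eEF1A to deliver charged tRNAs and eEF2 to move the ribosome. When amino acids run short, the kinase GCN2 phosphorylates eIF2, which slows eIF2B and general initiation while transcripts such as Atf4 are translated more. Many elongation factor and some initiation factor mRNAs start with a pyrimidine tract (5' TOP) that places their translation under mTORC1 control.

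A level below is the log2 of the processed signal, relative to the array's 75th percentile and read by the brightest probe of the gene, so it compares arrays for 1 probe and not 1 gene with another. A change is halofuginone minus control on that scale. A gene with a probe above background on 2 or more arrays was tested with limma (line as a block, Benjamini-Hochberg over 19093 tested genes, threshold 0.05), and 54 of the 58 factor genes were among them. The chosen probe was well above background on all 4 arrays for 53 of these, and only Eif4e3 passed the filter on fewer. The halofuginone arrays had a higher share of bright spots (53.1% and 54.0%, against 47.2% and 48.6% in controls). The percentile was taken over all spots other than controls, bright or dim. Taking it over probes detected on every array changed the calls, as given below, and the part of the bright share in this was not tested. All 7 epithelial markers, keratins and cadherin 1 among them, were well above background on all 4 arrays, and 4 of 5 acinar markers on none. Of the 5 immune markers 4 were also well above background on all arrays, with a summed log2 level of 4.55 and 4.39 in controls and 2.95 and 2.26 after halofuginone. Cd14 carried most of that sum and fell by 3.38, Cd68 fell by 1.79, and Cd3e (-0.83) and Ptprc (0.61) did not pass. Muc1, an epithelial marker, fell by 3.40 and Cela1, an acinar one, by 2.53, while Kdr, an endothelial one, was called higher with its K5 control at background. The 4 endothelial markers summed to between -3.82 and -1.32, the 5 fibroblast markers to between -3.54 and -1.42 and the 5 acinar markers to between -1.37 and 1.83. The part of these markers in the results below was not tested.

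After halofuginone 7 factor genes rose and 0 fell. They were Eif2b3, Eif2s2, Eef1e1, Eif3j1, Eif3d, Eif3c and Eif3j2, with rises between 1.75 and 2.24 on the log2 scale (limma adjusted p from 0.039 to 0.045). The other 47 tested genes did not pass. Over all tested genes 3.88% were called higher and 5.08% lower, against 7 of 54 (12.96%) and 0 of 54 here. At an unadjusted p under 0.05, limma had 20 factor genes higher, Eif4e3 among them, and 2 lower, against 17.2% and 16.9% of all tested genes. The calls depend on the fit: 0 factor genes passed without the line as a block (17 higher and 2 lower at an unadjusted p under 0.05; 11.9% and 11.6% of all genes), without the filter on dim probes (19 and 3; 9.27% and 31.5%), or when the percentile was taken over probes detected on every array (18 and 3; 14.0% and 19.9%). Under those settings 0 of all tested genes passed too, so the loss was not particular to factor genes. With the mean over probes, those at background included, 2 passed (Eif2b3 and Eif3c), against 1.17% of all tested genes higher and 1.93% lower. Under 3 settings more factor genes passed, all 7 included, and so did more of all genes. Normexp background correction gave 19 higher and 2 lower (13.5% and 14.9% of all tested genes). The filter on all 4 arrays gave 16 and 1, with 1909 and 2103 of 15896 over all genes, and a variance trend 17 and 2, with 2039 and 2161 of 19093.

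The median change over the 54 genes was 0.60, with 0.58 in K5 and 0.50 in K6, against 0.01, -0.03 and 0.04 over all tested genes. In both lines 36 of 54 (66.7%) were higher, against 38.7% of all tested genes, and 14 (25.9%) lower, against 38.0%. Both halofuginone arrays lay above both control arrays for 31 factor genes (57.4%; 30.0% of all tested genes) and below both for 12 (22.2%; 28.6%). Changes of 2-fold or more were also counted within each line, provided that the brighter array was above background. In K5 14 factor genes were higher and 1 lower by this measure (14.1% and 14.9% of all tested genes), and in K6 17 and 2 (16.4% each). In both lines 10 were at least 2-fold higher and 0 lower (8.59% and 9.62%). The counts in this paragraph include Eif4e3, which passed the filter only through the arrays on which it was high. Over the 53 factor genes well above background on all 4 arrays, 9 were at least 2-fold higher in both lines and 0 lower, against 7.13% and 8.86% of all such genes. Taking the percentile over probes detected on every array moved the median of all genes from 0.01 to -0.12 and that of the factor genes to 0.47, a gap of 0.59 either way. Signs in both lines did not hold under every scaling: with quantile normalization, median centring or the percentile over detected probes Eif1b, Eif2b1 and Eif3i no longer had 1 sign in both lines, nor did Eef1b2 with quantile normalization.

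**Figure D1:**
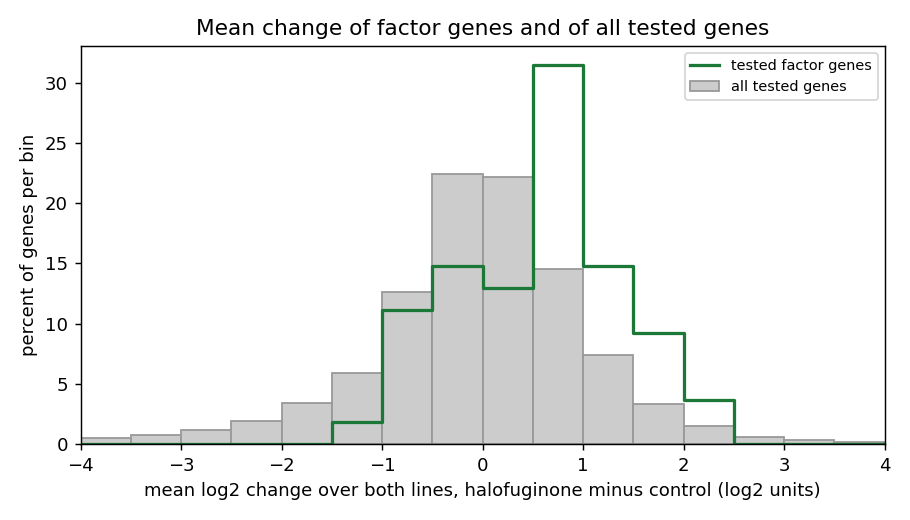
Share of genes (y axis, percent per bin of log2 change) by mean change over both lines (x axis, log2 units, drawn from -4 to 4) for all 19093 tested genes (grey bars) and the 54 tested factor genes (green line). The factor genes are shifted right, with a median of 0.60 against 0.01, and lie between -1.004 and 2.24.

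**Figure D2:**
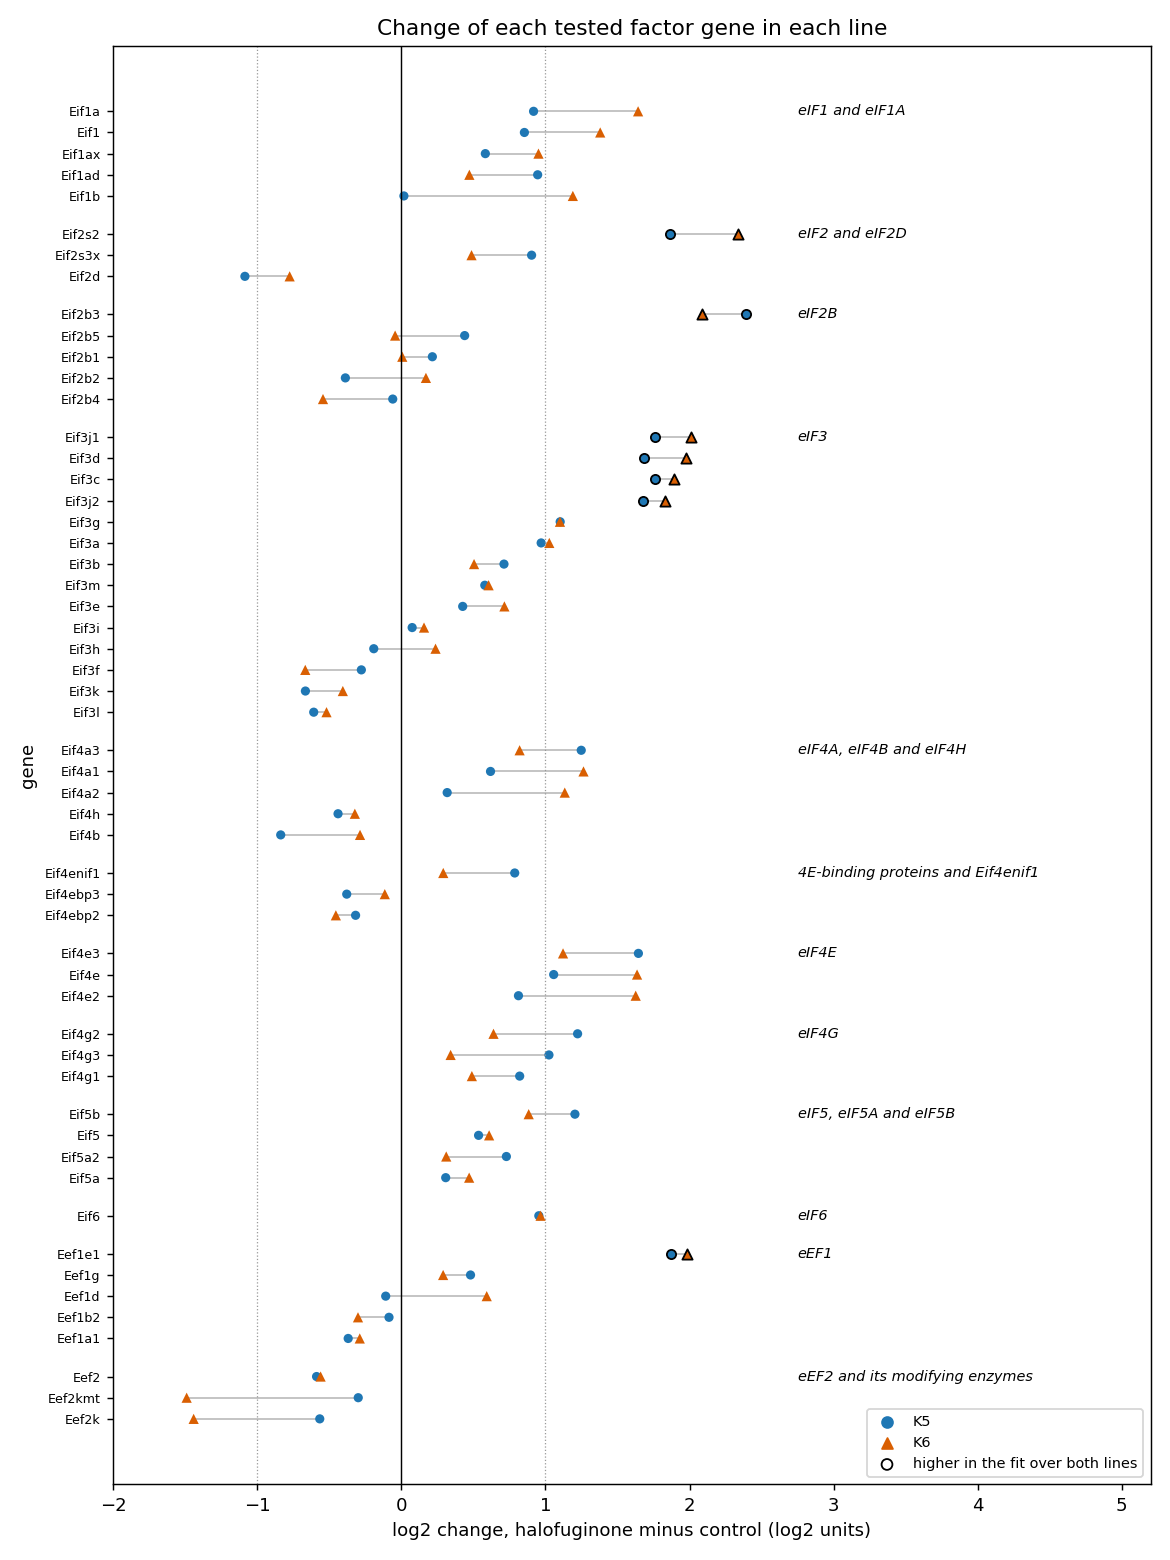
Log2 change after halofuginone (x axis, log2 units) of each tested factor gene (y axis) in K5 (blue circles) and K6 (orange triangles), with 1 array per line and condition. A black outline marks the 7 genes that rose in the fit over both lines, and dotted lines mark 2-fold; all eIF4E, eIF4G, eIF5 and eIF6 genes shown lie right of 0 in both lines, and eEF2 with its modifying enzymes left of 0.

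Among eIF2 genes, Eif2s2, which encodes the beta subunit, stood apart. Its level was 5.14 in control and 7.01 in halofuginone K5, and 5.01 and 7.34 in K6. Both treated arrays were above both controls, and the gene rose by 2.10 (SE 0.28, 2 lines, limma adjusted p = 0.043), or 4.29-fold. The probe lies on mm9 chromosome 2 from 154698193 to 154698252. A second, dimmer probe (154710267 to 154710326), with another transcript's accession, was not well above background on the K5 control array. It was at least 4.98-fold higher in K5 and changed by 0.36 in K6. Eif2s3x, the X-linked gene of the gamma subunit, read 0.30 in control and 1.21 in halofuginone K5, and -0.02 and 0.47 in K6, a change of 0.70 (SE 0.28, adjusted p = 0.17) that did not pass; its other passing probe read -0.45 in K5 and 0.18 in K6, so its probes disagreed in K5. Eif2d encodes a factor that can deliver tRNA without eIF2. It had the lowest change of this group, at 2.89 in control and 1.81 in halofuginone K5, and 2.79 and 2.02 in K6, a change of -0.93 (SE 0.27, adjusted p = 0.10) with 3 passing probes between -0.96 and -0.70. Eif2s2 and Eif2d thus lay on opposite sides of 0 in both lines, each with treated and control arrays that did not overlap.

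Of the 5 eIF2B subunit genes, 1 rose. Eif2b3 encodes the gamma subunit, which together with epsilon forms the catalytic part. It read 0.04 in control and 2.44 in halofuginone K5, and 0.74 and 2.83 in K6. Every treated array exceeded every control, and the rise of 2.24 (SE 0.27, 2 lines, limma adjusted p = 0.039), or 4.72-fold, had the highest value of all tested factor genes. Its 3 probes on mm9 chromosome 4, between 116731398 and 116759318, had mean changes from 2.24 to 2.38, the dimmer ones slightly more than the brightest. The other 4 subunit genes had changes between -0.30 and 0.20 and none passed. Eif2b5, the epsilon subunit, changed by 0.44 in K5 and -0.04 in K6, Eif2b1 (alpha) by 0.21 in K5 and 0.01 in K6 and Eif2b2 (beta) by -0.39 in K5 and 0.17 in K6. Eif2b4 (delta) had the lowest, at 2.53 in control and 2.47 in halofuginone K5, and 2.63 and 2.09 in K6, a change of -0.30 (SE 0.28, adjusted p = 0.49). Genes of 1 complex therefore ran from the highest rise of the set to values on both sides of 0.

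Of the 14 eIF3 genes, 4 rose (Eif3j1, Eif3d, Eif3c and Eif3j2), 0 fell and 10 did not pass, with a median of 0.60. In both lines 10 were higher, 3 were lower and Eif3h differed in sign. Across the 14 genes, which were read on the same 4 arrays, the changes in K5 and K6 correlated at r = 0.97, against 0.85 over all 54 factor genes and 0.69 over all tested genes.

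Eif3c and Eif3d encode a core scaffold subunit and a subunit with its own cap-binding site. Eif3c read 5.73 in control and 7.49 in halofuginone K5, and 5.64 and 7.53 in K6, a rise of 1.83 (SE 0.26, 2 lines, limma adjusted p = 0.044), or 3.55-fold. A dimmer probe on mm9 chromosome 7 next to the chosen one (133690192 to 133690251 beside 133690426 to 133690485) changed by 2.47 and 2.53. The level of Eif3d was 5.42 in control and 7.11 in halofuginone K5, and 5.41 and 7.39 in K6, a rise of 1.83 (SE 0.27, 2 lines, limma adjusted p = 0.044), or 3.56-fold, at mm9 chromosome 15 from 77789432 to 77789491. In both genes the treated arrays lay above both controls.

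Eif3j1 and Eif3j2 are near-identical neighbouring copies of the gene for the loosely bound j subunit, so their probes may share signal and their values are not independent. Eif3j1 read 1.43 in control and 3.19 in halofuginone K5, and 1.498 and 3.51 in K6, a rise of 1.88 (SE 0.26, 2 lines, limma adjusted p = 0.044). Its probe lies on mm9 chromosome 2 from 121879180 to 121879239; a dimmer probe downstream (121882015 to 121882074) changed by 0.10 in K5 and 0.00 in K6, so the probes of Eif3j1 disagreed. Eif3j2 read 2.41 in control and 4.09 in halofuginone K5, and 2.18 and 4.01 in K6, a rise of 1.75 (SE 0.26, 2 lines, limma adjusted p = 0.045), at mm9 chromosome 2 from 121866905 to 121867335.

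The other eIF3 genes had changes from 1.101 down to -0.56. Eif3g, whose product binds RNA during scanning, was at least 2-fold higher in both lines and read 5.63 in control and 6.73 in halofuginone K5, and 5.50 and 6.60 in K6, a change of 1.101 (SE 0.26, adjusted p = 0.074) that did not pass. Eif3a, the largest scaffold subunit, had 0.998 (SE 0.26, adjusted p = 0.086), Eif3b 0.61, Eif3m 0.59 and Eif3e 0.57. Eif3i and Eif3h had 0.12 and 0.02. Eif3f, Eif3k and Eif3l were lower in both lines, at -0.47, -0.54 and -0.56. Eif3l, the lowest, read 6.05 in control and 5.44 in halofuginone K5, and 5.88 and 5.36 in K6 (SE 0.26, limma adjusted p = 0.21). Eif3k had dimmer probes at 0.24 and -0.02, so the lower value of its brightest probe was not shared by all. Within each of the runs Eif3j1 to Eif3j2, Eif3g to Eif3a, Eif3b to Eif3e, Eif3i to Eif3h and Eif3f to Eif3l, neighbours differed by less than 1 SE.

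**Figure D3:**
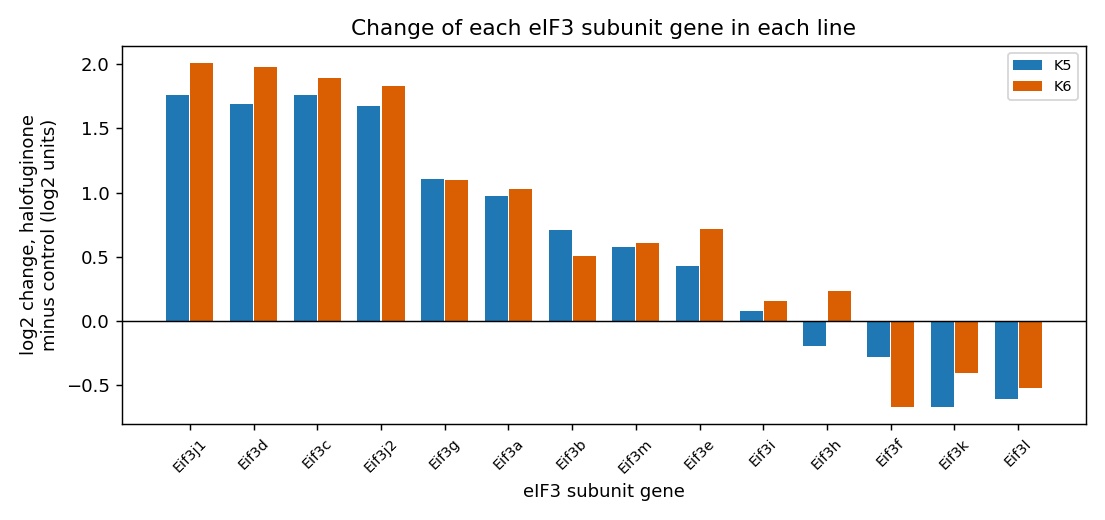
Log2 change after halofuginone (y axis, log2 units) of each eIF3 subunit gene (x axis) in K5 (blue bars) and K6 (orange bars), 1 array per line and condition. The first 4 genes rose, with changes between 1.68 and 2.01 in each line, while Eif3f, Eif3k and Eif3l lie below 0 in both.

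Promoter sequences were set beside these values to show what the subunit genes of 1 complex have, or lack, just before their annotated starts. RefSeq (GRCm38.p6) held a promoter of 250 bases before and 50 after the start for 45 of the 58 genes. The 150 bases before the start follow for the eIF3 genes that rose and have an entry, then for those lower in both lines. Capitals mark CACGTG, an E-box, or CCGGAAGT, an ETS-type site, on either strand.
Eif3c: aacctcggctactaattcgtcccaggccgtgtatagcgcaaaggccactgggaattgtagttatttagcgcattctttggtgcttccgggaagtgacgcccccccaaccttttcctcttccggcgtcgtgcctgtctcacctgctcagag
Eif3d: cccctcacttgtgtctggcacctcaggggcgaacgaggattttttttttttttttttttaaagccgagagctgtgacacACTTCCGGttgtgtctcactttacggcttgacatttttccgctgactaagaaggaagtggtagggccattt
Eif3j1: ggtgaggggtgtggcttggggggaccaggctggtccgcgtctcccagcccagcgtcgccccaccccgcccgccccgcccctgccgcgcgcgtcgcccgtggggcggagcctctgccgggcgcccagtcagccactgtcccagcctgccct
Eif3f: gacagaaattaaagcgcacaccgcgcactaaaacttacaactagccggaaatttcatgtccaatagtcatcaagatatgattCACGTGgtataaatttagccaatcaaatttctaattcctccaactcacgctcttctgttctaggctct
Eif3k: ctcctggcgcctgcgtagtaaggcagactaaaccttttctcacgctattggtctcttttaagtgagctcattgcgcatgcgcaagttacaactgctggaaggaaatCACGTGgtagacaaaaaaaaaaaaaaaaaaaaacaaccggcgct
Eif3l: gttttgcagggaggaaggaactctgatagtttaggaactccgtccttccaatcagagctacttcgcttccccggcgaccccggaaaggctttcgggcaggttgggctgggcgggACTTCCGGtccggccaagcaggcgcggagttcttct
They lie at chr7:126566367-126566516 on the minus strand, chr15:77970825-77970974 on the minus strand, chr2:122028430-122028579 on the plus strand, chr7:108934265-108934414 on the plus strand, chr7:28981889-28982038 on the minus strand and chr15:79075073-79075222 on the plus strand.

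CACGTG begins 68 bases before the start of Eif3f and 44 before that of Eif3k, and CCGGAAGT, on the opposite strand, 71 before that of Eif3d and 36 before that of Eif3l. Eif3a, which is not printed and was higher in both lines (0.97 in K5 and 1.03 in K6), also has CACGTG, 22 bases after its start. In the whole promoter window, searched on both strands, CACGTG was in 12 of the 45 factor genes (26.7%) against 8.09% of 27025 genes with an entry and 8.91% of the protein-coding ones. CCGGAAGT was in 8 (17.8%) against 4.31% and 5.69%. TGATGNAA, the core of the element bound by Atf4 with a C/EBP partner, was in 2 (4.44%) against 4.51%, Eef2k and Eif2s3x. TGACGTCA, the cyclic AMP response element, was in 1 (2.22%) against 2.03%, Eef2. The matches do not overlap in the sequences printed, and CACGTG and TGACGTCA read the same on both strands. The 12 tested genes with CACGTG had a median change of 0.45 (from -1.004 to 1.35, 0 of 12 past the threshold) and the 30 without it 0.65 (5 past it). These motifs were chosen after the values were seen, and a match is only a match of letters.

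The start itself was read for a pyrimidine tract. The 15 bases before and 15 after the annotated start follow, with the bases after it in capitals, for eIF3 genes at both ends of the order and for Eef1a1, whose mRNA is a textbook TOP transcript.
Eif3c: ctcacctgctcagagGGACTCGGCAGCTTA
Eif3d: gtggtagggccatttACGACAGCGCTGGTC
Eif3f: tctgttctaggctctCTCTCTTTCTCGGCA
Eif3l: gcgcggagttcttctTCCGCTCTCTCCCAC
Eef1a1: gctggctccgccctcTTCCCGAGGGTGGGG
Of the 45 genes with an entry, 3 (6.67%; 3.01% of all genes) had C followed by 4 or more pyrimidines exactly at the annotated start: Eif3f, Eif2s3x and Eif2c5. Eif3l and Eef1a1 have pyrimidines on both sides of the annotated start, and Eif3c and Eif3d have G or A as the first base. Not printed are Eif3k, also lower in both lines, and the riser Eif3j1, which both have G as the first base. A pyrimidine start was thus not shared by all eIF3 genes that were lower. An annotated start can be some bases from the one used in these cells.

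Genes of start codon selection were all higher in both lines, except that Eif1b was lower in K5 under the other scalings named above, and none passed. The 5 genes of eIF1 and eIF1A had a median of 0.77. Eif1a, an autosomal relative of the X-linked Eif1ax, had the highest value, 3.15 in control and 4.07 in halofuginone K5, and 2.99 and 4.64 in K6, a change of 1.28 (SE 0.31, adjusted p = 0.080). Eif1, which guards the fidelity of start codon choice, changed by 0.85 in K5 and 1.38 in K6, its other probe by 1.02 and 1.66. Eif1b had the lowest, 2.03 in control and 2.05 in halofuginone K5, and 1.48 and 2.67 in K6, a change of 0.60 (SE 0.39, adjusted p = 0.34), nearly all of it in K6.

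None of the 3 tested genes of the cap-binding eIF4E family passed, and the brightest probe of each was higher in both lines. Eif4e itself, the cap-binding protein, read 2.31 in control and 3.37 in halofuginone K5, and 2.30 and 3.94 in K6, a change of 1.35 (SE 0.29, adjusted p = 0.068) that did not pass. It was at least 2-fold higher in both lines, and a dimmer probe changed by 0.08 in K5 and 0.88 in K6. Another probe, at background on the K5 control array, was at least 3.59-fold higher in K5 and changed by 1.64 in K6. Eif4e2, a cap-binding relative that represses translation, had the lowest of the family, 3.15 in control and 3.96 in halofuginone K5, and 3.37 and 4.9995 in K6, a change of 1.22 (SE 0.33, adjusted p = 0.092). Its dimmer probe gave -0.04 in K5 and 0.80 in K6, so the probes of Eif4e2 disagreed in K5. Eif4e3 was not well above background in either control and read -4.45 in control and -2.81 in halofuginone K5, and -5.24 and -4.11 in K6. Set against the control arrays' detection limits it was at least 1.68-fold higher over both lines, 2.57-fold in K5 and 1.098-fold in K6. It entered the fit only through the arrays on which it was high, with control values at background, so its adjusted p of 0.062 is no support.

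The partners of eIF4E had median changes of 0.68 for eIF4G and -0.25 for the binding proteins. All 3 eIF4G scaffold genes were higher in both lines and did not pass. Eif4g2, which encodes a scaffold that lacks the eIF4E-binding part, read 2.43 in control and 3.65 in halofuginone K5, and 2.82 and 3.46 in K6, a change of 0.93 (SE 0.29, adjusted p = 0.12), and its 3 probes gave 0.78 to 0.93. Eif4g1, the main scaffold, read 4.17 in control and 4.99 in halofuginone K5, and 4.94 and 5.43 in K6, a change of 0.66 (SE 0.27, adjusted p = 0.18). Eif4ebp2 and Eif4ebp3 encode proteins that hold eIF4E away from eIF4G. Eif4ebp2, the lowest of its group, read 2.25 in control and 1.93 in halofuginone K5, and 2.21 and 1.75 in K6, a change of -0.39 (SE 0.26, adjusted p = 0.35), and Eif4ebp3 had -0.25. Eif4enif1, which carries eIF4E into the nucleus, read 0.80 in control and 1.59 in halofuginone K5, and 0.76 and 1.05 in K6, a change of 0.54 (SE 0.28, adjusted p = 0.26), or -0.0154 as the mean over its probes. That mean takes in a probe not well above background on any array, which read -0.75. Its dimmer probe well above background gave 0.16 (0.43 in K5 and -0.11 in K6).

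None of the 5 genes of the helicase and its partners passed. The 3 eIF4A genes were higher in both lines: Eif4a3, a helicase of the exon junction complex, read 1.55 in control and 2.80 in halofuginone K5, and 1.45 and 2.27 in K6, a change of 1.03 (SE 0.28, adjusted p = 0.092), while Eif4a1 and Eif4a2 had 0.94 and 0.73, each larger in K6. The genes of both helicase stimulators, Eif4b and Eif4h, were lower in both. Eif4b, the lowest, read 4.92 in control and 4.09 in halofuginone K5, and 4.51 and 4.23 in K6, a change of -0.56 (SE 0.29, adjusted p = 0.25), and Eif4h had -0.38. For Eif4b and Eif4h the treated arrays lay below both controls.

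The 4 genes of eIF5, eIF5A and eIF5B were higher in both lines without passing. Eif5b, the GTPase that joins the subunits, read -2.31 in control and -1.11 in halofuginone K5, and -0.96 and -0.07 in K6, a change of 1.04 (SE 0.27, adjusted p = 0.086). Eif5, which triggers GTP hydrolysis on eIF2, had 0.57. Eif5a, the hypusine-bearing factor, had the lowest change at its brightest probe, 7.94 in control and 8.25 in halofuginone K5, and 7.70 and 8.17 in K6, a change of 0.39 (SE 0.26, adjusted p = 0.35). A dimmer probe of Eif5a gave 1.18 in K5 and 1.105 in K6, so the size of its change rests on the probe. Its paralog Eif5a2 had 0.52. Eif6, which keeps the large subunit from joining early, read 4.13 in control and 5.09 in halofuginone K5, and 4.23 and 5.19 in K6, a change of 0.96 (SE 0.26, adjusted p = 0.091). The second probe of Eif6 gave 0.95 and 0.76, and a much dimmer one for another transcript 0.25 and -0.86.

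Of the 8 tested elongation genes 1 rose, and the eEF1 genes had a median of 0.24. Eef1e1 (also known as Aimp3) encodes a scaffold of the multi-tRNA synthetase complex rather than an elongation factor proper. It read 1.12 in control and 2.99 in halofuginone K5, and 1.05 and 3.03 in K6, a rise of 1.93 (SE 0.26, 2 lines, limma adjusted p = 0.042), or 3.8-fold, at mm9 chromosome 13 from 38738078 to 38738137. A dimmer probe in another transcript changed by 2.04 in K5 and 0.46 in K6. The other 4 tested eEF1 genes had changes from -0.33 to 0.38. Eef1a1, which delivers charged tRNAs, read 7.73 in control and 7.36 in halofuginone K5, and 7.50 and 7.21 in K6, a change of -0.33 (SE 0.26, adjusted p = 0.42). The exchange factor subunits Eef1b2, Eef1d and Eef1g had -0.19, 0.24 and 0.38.

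All 3 genes of eEF2 and its modifying enzymes were lower in both lines, and none passed. Eef2, the translocation GTPase, had 7.26 in control and 6.67 in halofuginone K5, and 7.27 and 6.71 in K6, a change of -0.57 (SE 0.26, adjusted p = 0.20), with 3 probes between -0.60 and -0.47. Eef2k encodes the kinase that inactivates eEF2. Its level was 0.43 in control and -0.13 in halofuginone K5, and 0.65 and -0.79 in K6, a change of -1.004 (SE 0.34, adjusted p = 0.13), larger in K6, and its 3 probes well above background on all arrays gave -1.74 to -1.004. Eef2kmt, a methyltransferase of eEF2, had -0.30 in K5 and -1.49 in K6. Treated arrays lay below both controls in all 3 genes. The 150 bases before the annotated start are printed for some genes outside eIF3, with CACGTG in capitals. They are the risers Eif2s2 and Eef1e1 and then Eef2, which was lower in both lines but did not pass.
Eif2s2: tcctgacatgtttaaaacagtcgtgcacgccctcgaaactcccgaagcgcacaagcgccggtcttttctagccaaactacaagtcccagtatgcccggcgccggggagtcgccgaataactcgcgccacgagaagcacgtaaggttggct
Eef1e1: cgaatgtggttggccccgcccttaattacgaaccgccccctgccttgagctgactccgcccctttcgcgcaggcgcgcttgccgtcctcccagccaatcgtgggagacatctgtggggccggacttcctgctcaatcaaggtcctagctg
Eef2: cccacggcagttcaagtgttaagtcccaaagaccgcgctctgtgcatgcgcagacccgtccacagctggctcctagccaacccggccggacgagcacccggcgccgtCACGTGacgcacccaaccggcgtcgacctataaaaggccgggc
They lie at chr2:154892907-154893056 on the minus strand, chr13:38659029-38659178 on the minus strand and chr10:81176481-81176630 on the plus strand. CACGTG begins 43 bases before the start of Eef2, and neither riser holds any of the 4 motifs in its window. The choice of genes does not set higher and lower genes apart by this motif. Eef2kmt and Eif2d, also lower in both lines, hold none of the 4. CACGTG was in Eif1b, Eif3a, Eif4a1, Eif4e, Eif4g1, Eif5a and Eif5a2, all higher in both lines on the scale used here. Among genes lower in both lines it was also in Eef2k, Eif3f, Eif3k and Eif4h.

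**Figure D4:**
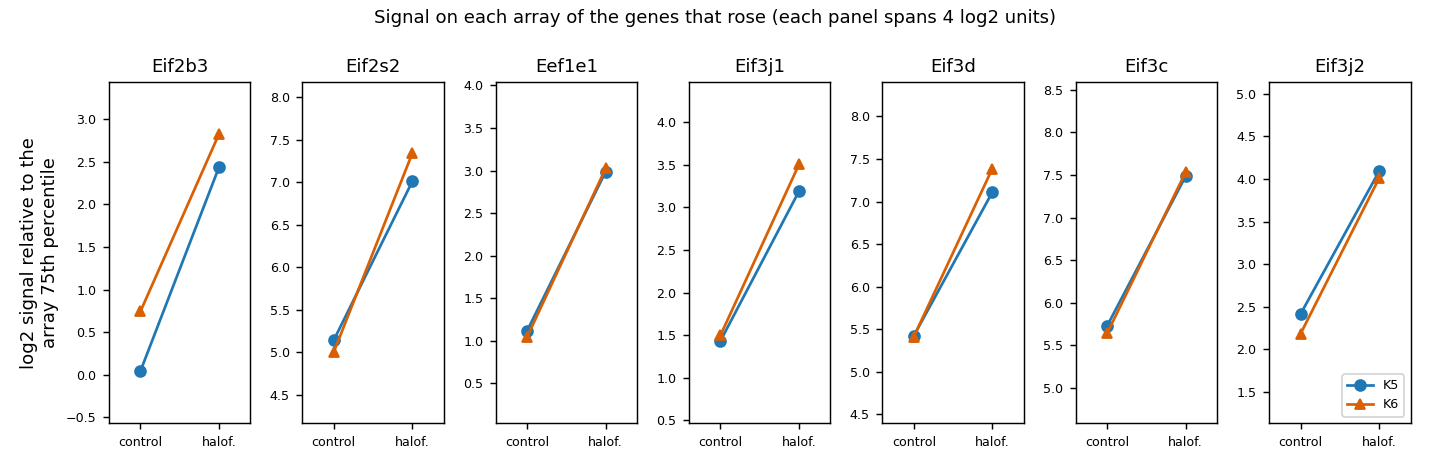
Level on each array (y axis, log2 signal relative to the array's 75th percentile; each panel spans 4 log2 units) in control and halofuginone samples (x axis) for the 7 genes that rose, with K5 in blue circles and K6 in orange triangles. Both lines climb by 1.68 to 2.39 in every panel, and treated and control arrays do not overlap.

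Too dim to be tested were 4 factor genes. Eif2s3y, the Y-linked copy of the gamma subunit gene, and Eif4e1b, a relative of Eif4e known from oocytes, were not well above background on any array. Eef1a2, the eEF1A form of muscle and neurons, was well above background only on the halofuginone K5 array, where it was at least 4.18-fold above the control's limit. Eif2c5 was so only on the halofuginone K6 array, at least 1.19-fold above it. Each rests on 1 array.

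Probes of 1 gene mostly gave the same sign. Of 120 probes for the 58 genes, 97 were well above background on at least 2 arrays, and 30 genes had more than 1 of these. Mean changes had 1 sign in 26 of the 30 and both signs in Eif2b4, Eif2s3x, Eif3k and Eif6. They were more than 1 apart in Eif3j1, Eif4e and Eif6. Several factor genes have processed copies elsewhere in the genome, which these probes may also read.

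Between the lines, with treatment in the fit, 0 of 54 factor genes differed (limma adjusted p; 4 at an unadjusted p under 0.05), against 0.173% of all tested genes (15.5% at an unadjusted p under 0.05). Those 4 were Eif5b, Eif4g3, Eef1g and Eif4e3, the last with control values at background. Among genes measured on all arrays, the K6 minus K5 difference ran from -0.78 (Eef1g) to 1.19 (Eif5b), and Eif4g3 had 1.04.

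Other genes of cytosolic and mitochondrial translation were read in the same fit from 5 lists of 42 genes, all tested. Of these, 1 of 42 rose and 0 fell, against 3.88% and 5.08% of all tested genes, with a median of 0.37. Etf1, the release factor that reads stop codons, had a level of 4.51 and 6.17 in control and halofuginone K5 and 4.49 and 6.35 in K6, a rise of 1.76 (SE 0.26, limma adjusted p = 0.045). Termination and recycling genes (9) had a median of 1.04, with Mcts1 lowest at -0.21. Among 10 poly(A)-binding and scaffold partners, with a median of 0.70, Dhx29, a scanning helicase, had 1.99 (SE 0.37, adjusted p = 0.056) and Pdcd4, an inhibitor of eIF4A, -1.16. The 11 kinases and modifying enzymes had a median of 0.36, from -1.50 (SE 0.27, adjusted p = 0.053) for Mknk2, a kinase of eIF4E, to 0.68 for Dph6. Both selenocysteine factors lay at 0.30 (Eefsec) and 0.66 (Secisbp2). The 10 mitochondrial factors had a median of 0.05, from -0.74 for Tufm to 0.65 for Mtrf1l.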

How the data were processed

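Total RNA of 4 samples was amplified, Cy3-labelled and read on Agilent arrays of 1 colour, per the labels' protocols. Per the file headers, spot intensity came from Agilent Feature Extraction 10.7.1.1 on design 074809 with probe positions on mm9 (NCBI37); the submitters' processing notes name 9.5.1.1. In the deposited processed intensity, background and a spatial trend have been removed array by array. The authors' deposited value table also holds intensity, with sorted values that differ by at most a relative 0.000371 between its 4 columns; its scale is linear and no source used here names the step behind it. Deposited flags, used here, mark spots above background, outliers and saturation (0 spots).

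Spots flagged as outliers and controls were dropped and the rest averaged by probe (56304 of 56605 probes kept), the array's 75th percentile over spots other than controls was subtracted, and each gene took its brightest probe. The fit used limma 3.58.1 in R 4.3.3 (lmFit, eBayes, with 1 residual and 2.97 prior degrees of freedom). The line was a block because the control and treated samples of the same number (5 or 6) share their cells. Over the tested genes, the line difference in controls correlated with that under halofuginone at r = 0.50. The fit was tested on simulated data. The simulated arrays had equal noise in every gene and the same change in both lines, so they check the code and not the calls given here. The smallest p of an exact permutation test of 2 against 2 samples is 0.333, so none was used, and no arrays beyond 4 support any value. Detection limits for "at least" folds are each array's lowest signal well above background.

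Members, factor groups and related lists were chosen with earlier results of these data known. Values on every array are given for genes past the threshold, for those at least 2-fold changed in the same direction in both lines, and for the highest and lowest of each factor group. Promoters are from RefSeq (GRCm38.p6); 13 genes had no entry. Alternatives were the scaling, background correction, value table, filter, probe rule, variance trend, block and each line alone.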

Additional observations from a re-analysis of the deposited data

Results flagged for a closer look

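With 1 array per line and condition, no difference in response between the lines was tested. In 4 tested genes the K5 and K6 changes had opposite signs. Subtracting the change in K5 from that in K6 gave 0.70 for Eef1d, 0.56 for Eif2b2, -0.48 for Eif2b5 and 0.43 for Eif3h, and no change in either line reached 2-fold.

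Signal also appeared outside the tested genes. Eef1a2 was well above background only on the halofuginone K5 array, at least 4.18-fold above the control limit, and Eif2c5 only on the halofuginone K6 array, at least 1.19-fold above it.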

How the results depend on the processing

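The 7 higher and 0 lower genes were also called with quantile normalization (3.63% of all tested genes higher and 5.35% lower) and median centring (5.18% and 7.82%). So they were with the authors' value table (3.62% and 5.34%). Its columns hold nearly the same sorted values, as quantile normalization gives, so it is not a separate check on that setting. Without the replicate block, without a filter and with the percentile over probes detected on all 4 arrays 0 factor genes passed. Nor did any of all tested genes under those settings. With the mean over probes, those at background included, 2 factor genes passed (1.17% of all tested genes higher and 1.93% lower). Normexp gave 19 higher and 2 lower, the filter on all 4 arrays 16 and 1, and the trend 17 and 2. Normexp also had 2 factor genes different between lines, for which the share over all genes was not counted. The stricter filter also left fewer genes in the fit, and the cause of these differences was not tested. The median change of 0.60 was 0.52 with quantile normalization, 0.52 with the authors' values and 0.47 with detected probes; in K5 (0.58) these gave 0.67, 0.67 and 0.51, and median centring 0.49; in K6 (0.50) they gave 0.41, 0.42 and 0.32, and the mean over probes 0.41. Of the related genes 1 passed, or 4 with median centring, 13 with normexp, 9 with the filter on all 4 arrays, 12 with the trend and 0 with no block, no filter, detected probes or averaged probes. With 1 line left out there is no test: the median ranged from 0.50 to 0.58, genes at least 2-fold higher from 14 to 17 (10 in both lines, with Eif4e3) and lower from 1 to 2 (0 in both). Eif4enif1 turned to -0.0154 with the mean over probes, which takes in a probe at background on every array (-0.75). Signal well above background limits Eif4e3 and the 4 untested genes.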
